A study of Macaca mulatta with 18 samples.

Results

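Gene expression in cerebellum (CER) was set against that in striatum (STR), gene by gene, in rhesus macaques (Macaca mulatta), within monkeys of Chinese origin and within monkeys of Indian origin. Of 30245 genes in the tables, 13143 were compared. These had a completed Cuffdiff test in both regions, at least 1 FPKM (fragments scaled to exon length and to library size) in CER or STR in each origin, and no value of 0. The samples used were 12 of 18, from CER and STR of 3 Chinese-origin monkeys aged 10.5, 11 and 11.5 years and 3 Indian-origin monkeys aged 7.5, 15 and 16 years. The labels give no treatment and no genetic change. All ate the stock diet of one primate center with added fruits and vegetables, and the study's methods state that the Chinese-origin monkeys had come there as young adults. Prefrontal cortex (PFC) of the same monkeys makes up the other samples and appears here only for side values. The study was made to compare the origins, and the region contrast is a use of its tables.

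Each table gives 1 pooled FPKM per gene and origin, with no value per monkey, so no spread between monkeys and no p-value could be had for CER against STR. Values are the authors' pooled FPKM, and each pair is given as Chinese origin and then Indian origin. A gene counted as higher in a region when its log2(CER/STR) was at least 1 (2-fold) in that direction in both origins, after subtracting the median over all genes. Before it was subtracted, that median came to 0.12 for Chinese-origin and 0.32 for Indian-origin monkeys. The distance between the 2 origins is the only spread in these data, and it mixes error with any difference of origin or age. Each region was sequenced on its own lane and went through its own Cuffdiff run, so region, lane and run cannot be told apart. Both origins share the lane and run, so the distance between them does not show such effects. The tables give no number of reads. A supplement of the study lists mean reads per origin and region, with more reads in CER than in STR in both origins, and the part of depth in the results was not tested.

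Cerebellum and striatum are built from different neurons. Cerebellar cortex is dominated by small glutamatergic granule cells, whose axons contact Purkinje cells, the large GABAergic neurons that form its only output. Striatum consists mostly of GABAergic spiny projection neurons that receive cortical glutamate and midbrain dopamine, one class carrying D1 receptors with substance P and dynorphin (the direct pathway) and another carrying D2 receptors with enkephalin (the indirect pathway). A difference in bulk tissue can come from the share of a cell type or from the RNA per cell, and these cannot be told apart here.

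At least 2-fold higher in CER in both origins were 1197 genes, 9.11% of those compared, and at least 2-fold higher in STR were 1698 genes, 12.9%. Without subtracting the median the counts were 1615 in CER and 1245 in STR, so that 56.5% of the calls lay on the CER side instead of 41.3%. At 4-fold the counts were 307 in CER and 477 in STR, and at 16-fold 28 in CER and 65 in STR. The 1197 genes were 82.0% of the genes that reached 2-fold toward CER in Chinese origin and 74.4% of those in Indian origin. Toward STR the 1698 genes were 80.8% of the Chinese-origin calls and 84.3% of the Indian-origin calls. Genes that reached 2-fold in opposite directions in the 2 origins numbered 18, 0.137% of those compared.

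**Figure D1:**
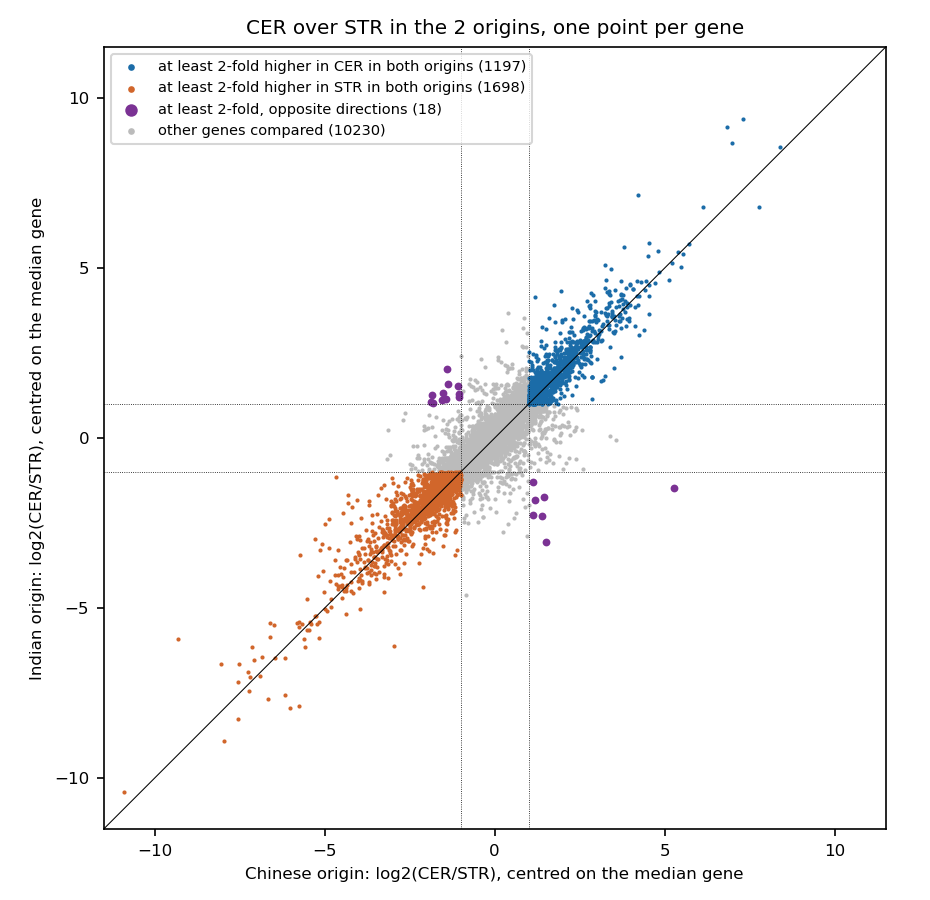
Centred log2(CER/STR) of each of the 13143 genes in Chinese origin (x axis) and Indian origin (y axis); the diagonal marks equal ratios and dotted lines mark 2-fold. Most genes lie near the diagonal, with 1197 in the upper right (higher in CER), 1698 in the lower left (higher in STR) and 18 in the other corners.

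The median distance between the 2 origins' log2 ratios was 0.16, and 95.9% of genes lay within 1. Across genes the ratios of the 2 origins had a Pearson correlation of 0.925 and a Spearman correlation of 0.910, given as a description, since genes are not independent and both origins share each region's lane. The distance was larger at low expression, with a median of 0.36 below 2 FPKM (mean of the 4 values) and of 0.13 between 10 and 50 FPKM. Genes of small RNAs (small nuclear and nucleolar RNAs, Y RNA, microRNA), recognised by symbol, had a median distance of 0.65 over 525 genes, against 0.15 over the other 12618. The genes just inside the 2-fold limit included MIB1, a ubiquitin ligase of the Notch pathway, with 26.2 and 23.3 FPKM in CER and 12 and 8.51 FPKM in STR (log2 1.00 and 1.14). SLC7A7, an amino acid transporter, was just outside it, with 1.74 and 1.47 FPKM in CER and 3.19 and 2.49 FPKM in STR (log2 -0.999 and -1.08).

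Granule cell and Purkinje cell genes were among those with the largest ratios toward CER. CBLN3, a cerebellin made by granule cells, had 329 and 304 FPKM in CER, against 0.899 and 0.650 FPKM in STR (log2 8.39 and 8.55). It is listed on chromosome 7 from 87324652 to 87327636 of the mmul1 build. CBLN1, the cerebellin that granule cells release to bridge their axons to Purkinje cells, had 646 and 517 FPKM in CER, against 2.73 and 3.75 FPKM in STR (log2 7.76 and 6.79). For both cerebellins the STR values stayed under 4 FPKM. NEUROD1, a transcription factor of granule cell differentiation, had 182 and 165 FPKM in CER and 1.06 and 0.20 FPKM in STR (log2 7.31 and 9.37). PCP2, a Purkinje cell modulator of G proteins, had 159 and 199 FPKM in CER and 1.15 and 0.389 FPKM in STR (log2 6.99 and 8.69). The 2 origins were more than 4-fold apart in the ratio of NEUROD1, through the low STR values, while the CER values were close.

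The neighbouring zinc finger genes ZIC1 and ZIC4, transcription factors of cerebellar development that lie side by side on chromosome 2, had nearly equal ratios in the 2 origins. ZIC1 had 352 and 365 FPKM in CER and 6.2 and 5.6 FPKM in STR (log2 5.70 and 5.71). ZIC4 had 177 and 166 FPKM in CER and 3.49 and 3.13 FPKM in STR (log2 5.54 and 5.41). CA8, a carbonic anhydrase-related protein that binds the IP3 receptor in Purkinje cells, had 208 and 196 FPKM in CER and 4.26 and 4.77 FPKM in STR (log2 5.48 and 5.04). The ratio of CA8 was similar to that of the ZIC genes although the genes mark different neurons.

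Several of the largest ratios toward CER were in genes better known from other organs. ATP4A, the alpha subunit of the gastric proton pump, had 196 and 154 FPKM in CER and 1.57 and 0.217 FPKM in STR, with 14.2 and 11.7 FPKM in PFC. DOK7, an adaptor of the muscle endplate kinase MuSK, had 70.5 and 62.6 FPKM in CER and 0.934 and 0.455 FPKM in STR. Of 3 genes on chromosome 2 with serine protease symbols, PRSS45 had 61.3 and 36.1 FPKM in CER and 2.03 and 0.641 FPKM in STR. The reference annotation names both PRSS45 and PRSS45P as PRSS45P, and PRSS42 as PRSS42P, so their identity is uncertain. PRSS42 and PRSS45P are listed with the same start and end, 89703021 and 89769060, so how reads were shared between them is uncertain, and PRSS42 had 52.0 and 34.3 FPKM in CER and 1.29 and 0.774 FPKM in STR. The remaining genes of the first 15 were ARHGEF33, an exchange factor, RAB37, a small GTPase of secretory vesicles, and PLEKHD1, with log2 ratios between 4.55 and 5.13.

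**Figure D2:**
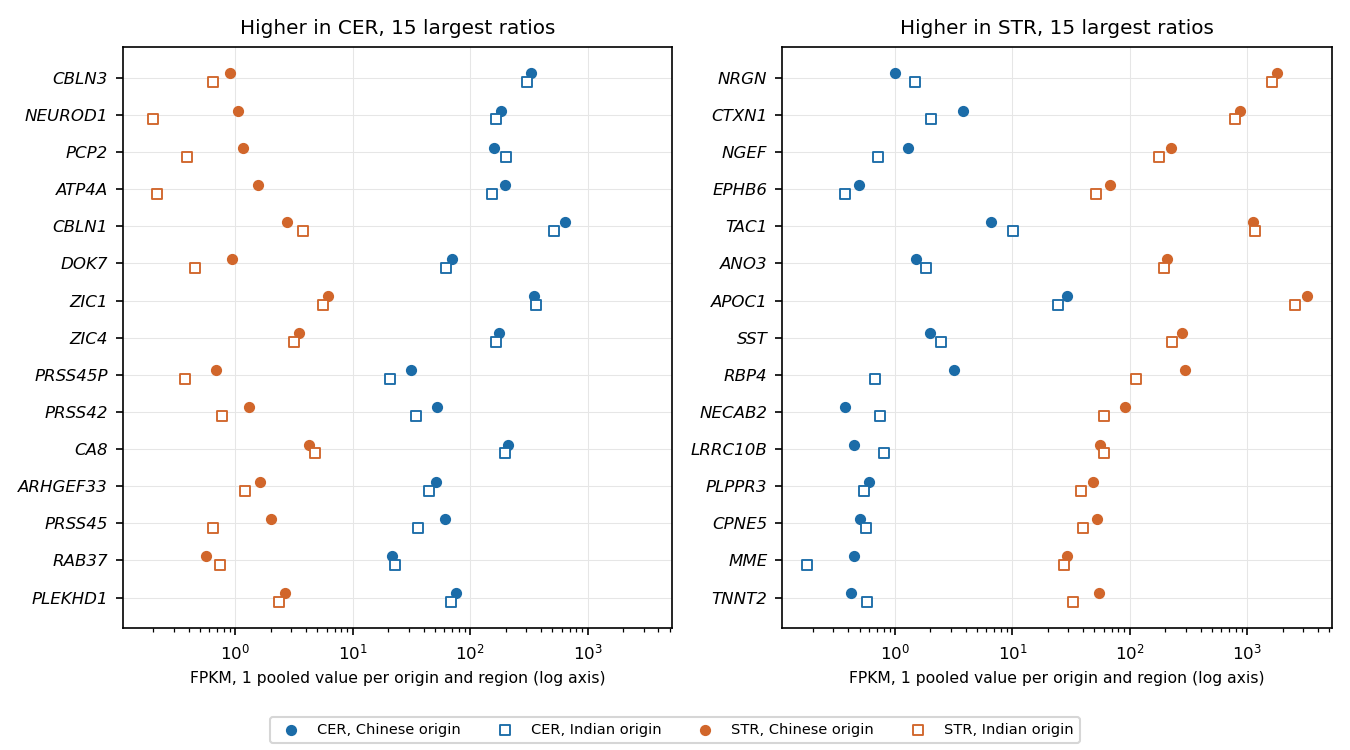
FPKM (log axis) of the 15 genes with the largest ratio toward CER (left) and toward STR (right), one pooled value per origin and region; blue is CER, orange STR, filled circles Chinese origin and open squares Indian origin. In every gene drawn, both values of one region lie far above both values of the other, as their choice by ratio fixes.

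Toward STR the largest ratio was that of NRGN, neurogranin, a postsynaptic protein that binds calmodulin. NRGN had 1.01 and 1.49 FPKM in CER, against 1776 and 1621 FPKM in STR (log2 -10.91 and -10.41), and 1385 and 1163 FPKM in PFC. CTXN1, a small neuronal membrane protein of cortex, had 3.83 and 2.02 FPKM in CER and 875 and 785 FPKM in STR. NGEF, ephexin, an exchange factor that acts downstream of Eph receptors, had 1.29 and 0.724 FPKM in CER and 223 and 179 FPKM in STR. EPHB6, an Eph receptor without kinase activity, had 0.497 and 0.373 FPKM in CER and 67.9 and 51.7 FPKM in STR. These 4 genes had PFC values of the order of those in STR (for EPHB6, 88.9 and 80.3 FPKM), so their ratios set CER apart from both forebrain regions.

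TAC1, the precursor of substance P in direct pathway neurons, had 6.53 and 10.03 FPKM in CER and 1127 and 1158 FPKM in STR (log2 -7.55 and -7.17), with 117 and 98.9 FPKM in PFC. ANO3, an anoctamin, had 1.53 and 1.86 FPKM in CER and 207 and 196 FPKM in STR (log2 -7.20 and -7.04). MME, neprilysin, a peptidase that cleaves enkephalin and substance P, had 0.445 and 0.179 FPKM in CER and 29.4 and 27.3 FPKM in STR, with 0.911 and 0.768 FPKM in PFC. LRRC10B had 0.451 and 0.807 FPKM in CER and 55.4 and 59.9 FPKM in STR, with 3.26 and 4.11 FPKM in PFC. In these 4 genes the STR values were also well above the PFC values.

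APOC1, an apolipoprotein of astrocytes and macrophages in brain, reached 29.3 and 24.5 FPKM in CER and 3224 and 2538 FPKM in STR, with 299 and 151 FPKM in PFC (log2 -6.90 and -7.01). It was the most abundant of the 15 genes in STR. RBP4, the retinol carrier, had 3.21 and 0.680 FPKM in CER, 297 and 112 FPKM in STR and 225 and 141 FPKM in PFC. SST, somatostatin, had 1.99 and 2.45 FPKM in CER, 278 and 230 FPKM in STR and 316 and 276 FPKM in PFC. The gene that the tables call TNNT2 carries the name LAD1 in the reference annotation, and its identity is uncertain. It had 0.423 and 0.582 FPKM in CER and 54.2 and 32.8 FPKM in STR. Its values in PFC, where the Cuffdiff calculation failed, were 244 and 297 FPKM. NECAB2, PLPPR3 and CPNE5 had log2 ratios between -8.04 and -6.45.

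**Figure D3:**
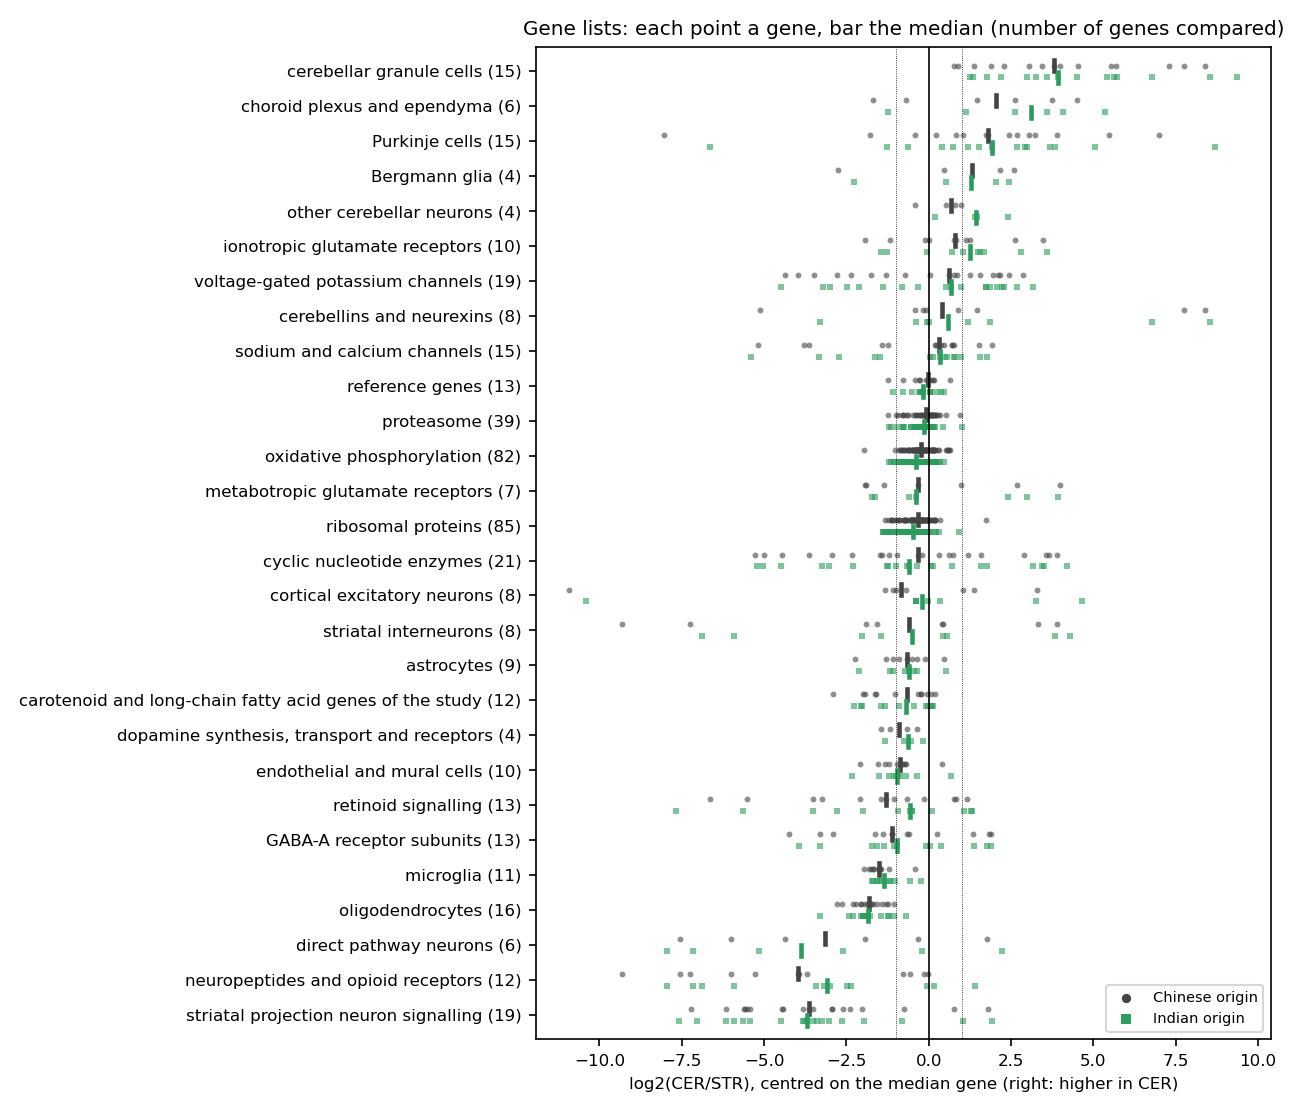
Centred log2(CER/STR) of the compared members of each gene list with at least 4 of them; each point is a gene, circles are Chinese origin, squares Indian origin, and the bar is the median. Granule cell genes have the highest medians (3.82 and 3.92) and striatal projection neuron signalling genes are among the lowest (-3.63 and -3.70), while the medians of proteasome, ribosomal and respiratory chain genes lie within 0.5 of 0.

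Of 22 granule cell genes in the tables, 15 were compared, and 13 of these were higher in CER and none higher in STR. Their median log2 ratios were 3.82 and 3.92, against 0 over all genes by the centring. Over all genes 9.11% were higher in CER and 12.9% higher in STR, the shares to set beside each list count below. Beside those above, GRM4, a presynaptic glutamate receptor of the parallel fibres, had 181 and 156 FPKM in CER and 10.5 and 8.27 FPKM in STR (log2 3.99 and 3.92). PAX6, a transcription factor of granule cell precursors, had 110 and 103 FPKM in CER and 12.1 and 10.4 FPKM in STR. UNC5C, a netrin receptor, was not called, with log2 ratios of 0.88 and 1.35. SLC17A7, the vesicular glutamate transporter VGLUT1, was called with very unequal ratios, 1.38 and 3.26. It had 169 and 145 FPKM in CER, and 59.6 FPKM in STR of Chinese origin against 12.2 FPKM in STR of Indian origin.

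Of 24 Purkinje cell genes in the tables, 15 were compared (median log2 1.81 and 1.92). Of these, 10 (66.7%) were higher in CER and 2 (13.3%) higher in STR, the last near the 12.9% of all genes. PVALB, the calcium buffer parvalbumin, had 2473 and 2722 FPKM in CER and 152 and 152 FPKM in STR (log2 3.90 and 3.85). PLCB4, the phospholipase behind metabotropic glutamate signalling, had 125 and 123 FPKM in CER and 13.9 and 13.0 FPKM in STR. SLC1A6, the Purkinje glutamate transporter, had 144 and 136 FPKM in CER and 14 and 8.56 FPKM in STR. CALB1, the calcium buffer calbindin, which both Purkinje and striatal projection neurons make, had 503 and 485 FPKM in CER and 132 and 103 FPKM in STR (log2 1.81 and 1.92). The 2 that went the other way were NECAB2, a calcium-binding partner of adenosine and metabotropic glutamate receptors, with 0.377 and 0.743 FPKM in CER and 90.9 and 59.9 FPKM in STR, and FOXP2, a transcription factor also made in striatum, with 1.24 and 1.13 FPKM in CER and 3.95 and 2.19 FPKM in STR. FOXP2 was no longer called without centring. Of 12 other cerebellar neuron genes in the tables, 4 could be compared and none was called. One of these 4, GRM2, the Golgi cell glutamate receptor, had log2 ratios of 0.99 and 2.42. Another 7 of the 12 had too few reads in STR, among them EOMES, given below. With such genes kept and 0.1 FPKM added to every value, the list median became 4.42 (mean of both origins, from 1.06).

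Of 28 genes of striatal projection neuron signalling in the tables, 19 were compared, of which 16 were higher in STR and 1 higher in CER (median log2 -3.63 and -3.70). RASD2, the striatal GTPase Rhes, had 5.84 and 4.6 FPKM in CER and 262 and 222 FPKM in STR (log2 -5.61 and -5.91). PTPN5, the striatum-enriched phosphatase STEP, had 8.10 and 4.78 FPKM in CER and 353 and 272 FPKM in STR. HPCA, the calcium sensor hippocalcin, had 28.2 and 30.6 FPKM in CER and 1117 and 1046 FPKM in STR (log2 -5.43 and -5.41). Each of these was also lower in PFC than in STR, HPCA at 189 and 167 FPKM. The gene that went against the list was CALB1, given above. CNR1, the cannabinoid receptor, was not called, with 111 and 105 FPKM in CER and 59.8 and 41.4 FPKM in STR.

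The same list holds parts of the dopamine receptors' signalling path. ADCY5, the main striatal adenylate cyclase, had 19.4 and 22.9 FPKM in CER and 221 and 175 FPKM in STR (log2 -3.63 and -3.25). GNAL, the Golf alpha subunit that couples dopamine and adenosine receptors to it, had 23.9 and 16.6 FPKM in CER and 114 and 83.0 FPKM in STR, and GNG7, the gamma subunit of the same heterotrimer, had 29.0 and 28.2 FPKM in CER and 376 and 312 FPKM in STR. RGS9, which shortens G protein signals at D2 receptors, had 15.7 and 9.88 FPKM in CER and 111 and 103 FPKM in STR.

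Enzymes that make or break down cyclic nucleotides divided between the regions. Of 21 compared, 8 were higher in STR (6 without centring) and 6 higher in CER (median log2 -0.31 and -0.59). The phosphodiesterases PDE2A, PDE7B and PDE1B had the largest ratios toward STR. PDE2A had 4.68 and 4.12 FPKM in CER and 165 and 124 FPKM in STR, and PDE7B had 1.29 and 1.24 FPKM in CER and 37.8 and 32.4 FPKM in STR. PDE10A, the striatal enzyme that hydrolyses both cAMP and cGMP, had 17.5 and 16.9 FPKM in CER, 124 and 110 FPKM in STR and only 6.04 and 4.85 FPKM in PFC. On the CER side, PDE3B had 23.5 and 19.7 FPKM in CER and 1.46 and 1.39 FPKM in STR (log2 3.89 and 3.51), and PDE5A, a cGMP-specific enzyme, had 17.5 and 15.3 FPKM in CER and 1.37 and 1.38 FPKM in STR. PDE3A, PDE1A, ADCY6 and ADCY1 completed the 6 that were higher in CER.

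Of 8 direct pathway genes in the tables, 6 were compared, of which 4 were higher in STR and 1 higher in CER. PDYN, the precursor of dynorphin, had 1.64 and 0.485 FPKM in CER and 97.3 and 95.4 FPKM in STR (log2 -6.01 and -7.94). SLC35D3, an orphan nucleotide sugar transporter, had 0.497 and 0.278 FPKM in CER and 9.46 and 7.99 FPKM in STR. EBF1, a transcription factor of direct pathway neurons in mouse development, went the other way, with 6.80 and 6.65 FPKM in CER and 1.84 and 1.14 FPKM in STR. Only 2 of 7 indirect pathway genes in the tables could be compared. PENK, the precursor of enkephalin, had 61.7 and 81.7 FPKM in CER and 894 and 711 FPKM in STR (log2 -3.98 and -3.44), and GRIK3 was not called.

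Of 19 neuropeptide and opioid receptor genes in the tables, 12 were compared, of which 8 were higher in STR and none higher in CER (median log2 -3.96 and -3.08). NPY, neuropeptide Y, had 0.824 and 8.30 FPKM in CER and 477 and 404 FPKM in STR (log2 -9.30 and -5.92), so its ratio was called in both origins although the 2 CER values were 10-fold apart. CCK, cholecystokinin, had 3.98 and 4.64 FPKM in CER and 141 and 29.5 FPKM in STR, with 977 and 861 FPKM in PFC, so that here the STR values were far apart. Of the receptors, OPRK1, the kappa receptor for dynorphin, had 0.886 and 1.02 FPKM in CER and 10.5 and 7.46 FPKM in STR. OPRL1, the nociceptin receptor, had similar values in CER (11.6 and 8.49 FPKM) and STR (10.9 and 7.04 FPKM).

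The interneuron genes of striatum that could be compared did not share a direction. Of 16 in the tables, 8 were compared and 7 had too few reads in 1 region. With such genes kept and 0.1 FPKM added to every value, the list median became -3.94 (mean of both origins, from -0.54). Of 8 compared, 4 were higher in STR, among them GAD2, a glutamate decarboxylase, with 89.2 and 82.3 FPKM in CER and 304 and 269 FPKM in STR. The GABA synthesis enzyme GAD67 was not called, with 160 and 147 FPKM in CER and 109 and 86.7 FPKM in STR. PVALB and CALB2 were higher in CER, CALB2 (calretinin, also a granule cell protein) with 615 and 644 FPKM in CER and 56.7 and 26.5 FPKM in STR. Of the dopamine list 4 genes were compared and 1 was called, higher in STR.

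Subunits of GABA-A receptors, pentameric chloride channels whose pharmacology depends on the subunits present, divided by subunit. Of 13 compared, 3 (23.1%) were higher in CER and 6 (46.2%) higher in STR. GABRD, the delta subunit of extrasynaptic granule cell receptors, had 237 and 182 FPKM in CER and 58.0 and 42.8 FPKM in STR. On the other side, GABRA5 had 4.92 and 4.35 FPKM in CER and 85.1 and 53.9 FPKM in STR, and GABRA4, the usual partner of delta in forebrain, had 2.75 and 2.87 FPKM in CER and 25.1 and 22.8 FPKM in STR (log2 -3.31 and -3.31). GABRQ, GABRE, GABRB1 and GABRG3 were higher in STR by smaller ratios, and the call of GABRG3 was lost without centring.

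Of 10 ionotropic glutamate receptor genes compared, 4 (40%) were higher in CER and 2 (20%) higher in STR. Of the last 2, GRID1 was no longer called without centring. GRIN2C, the NMDA receptor subunit of mature granule cells, had 64.0 and 56.8 FPKM in CER and 5.33 and 3.79 FPKM in STR (log2 3.46 and 3.59). GRIN2B, the subunit of forebrain NMDA receptors, had 1.01 and 0.967 FPKM in CER and 3.54 and 2.11 FPKM in STR. GRIA4, an AMPA receptor subunit, had 97.6 and 88.8 FPKM in CER and 14.5 and 10.3 FPKM in STR. Of 7 metabotropic receptors compared, 2 were higher in CER and 2 higher in STR, among the last GRM5, which had 6.88 and 5.86 FPKM in CER and 23.4 and 15.5 FPKM in STR. In the cerebellin list CBLN4 went against CBLN1 and CBLN3, with 0.203 and 0.693 FPKM in CER and 6.55 and 5.49 FPKM in STR, and NRXN3, a neurexin, was higher in CER (log2 1.48 and 1.87).

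Of 19 voltage-gated potassium channel genes compared, 7 (36.8%) were higher in CER and 6 (31.6%) higher in STR. The CER side held Kv3 and Kv4 channels, which allow fast firing and carry A-type currents, and the beta subunit KCNAB3. KCNC1 (Kv3.1) had 106 and 95.2 FPKM in CER and 13.3 and 8.58 FPKM in STR, and KCND2 (Kv4.2) had 108 and 102 FPKM in CER and 22.0 and 17.5 FPKM in STR. The STR side held KCNQ5 and KCNQ3, subunits of the M current, and KCNH3, an ether-a-go-go channel, with 3.12 and 2.77 FPKM in CER and 59.0 and 50.3 FPKM in STR. Of 15 sodium and calcium channel genes compared, 2 (13.3%) were higher in CER and 5 (33.3%) higher in STR, against 9.11% and 12.9% of all genes, so the share toward CER was near that of all genes. CACNA1H, a T-type calcium channel, had the largest ratio of these, with 0.865 and 0.563 FPKM in CER and 28.6 and 19.1 FPKM in STR.

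Among the genes that the status filter removed were some near absent in one region, including the best-known markers of each. Genes removed because the calculation failed were more numerous and follow further below. Of the genes with at least 1 FPKM in both origins and a completed test in CER, 289 had too few reads for a test in STR, and 139 of these were listed at 0 in both STR values. In the other direction 268 genes with a completed test in STR had too few reads in CER, 77 of them listed at 0 in both CER values. Small RNA genes made up 108 of the 289 and 51 of the 268. No value of the region with too few reads was above 0.556 FPKM in STR or 0.440 FPKM in CER.

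On the CER side of this group, GABRA6, the GABA-A subunit of granule cells, had 572 and 541 FPKM in CER and 0.179 and 0.121 FPKM in STR. FAT2, a protocadherin of parallel fibres, had 75.1 and 68.4 FPKM in CER and 0.364 and 0.161 FPKM in STR. EN2, the homeobox gene of midbrain and hindbrain, had 55.7 and 58.5 FPKM in CER and 0 and 0.0613 FPKM in STR. EOMES, the factor of unipolar brush cells, had 26.5 and 26.4 FPKM in CER and 0.102 and 0.0547 FPKM in STR. BARHL1 and BARHL2, homeobox factors of the granule lineage, had between 22.9 and 28.9 FPKM in CER and at most 0.144 FPKM in STR. PFC resembled STR for these genes, with 0.174 and 0.124 FPKM of GABRA6. CRTAM, a surface protein of lymphocytes, stood among them, with 55.6 and 47.7 FPKM in CER and 0.289 and 0.214 FPKM in STR.

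On the STR side, DRD1, the D1 dopamine receptor, had 0.436 and 0.246 FPKM in CER and 75.6 and 62.5 FPKM in STR, with 14.2 and 10.2 FPKM in PFC. GPR6, a receptor of indirect pathway neurons, had 0.102 and 0.218 FPKM in CER and 47.7 and 43.5 FPKM in STR. SIX3, a forebrain factor, had 0.0943 and 0.0983 FPKM in CER, 34.8 and 28.9 FPKM in STR and 0.805 and 0.849 FPKM in PFC. OXT, oxytocin, a hypothalamic peptide, was listed at 0 in both CER values and had 28.2 and 17.1 FPKM in STR.

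**Figure D4:**
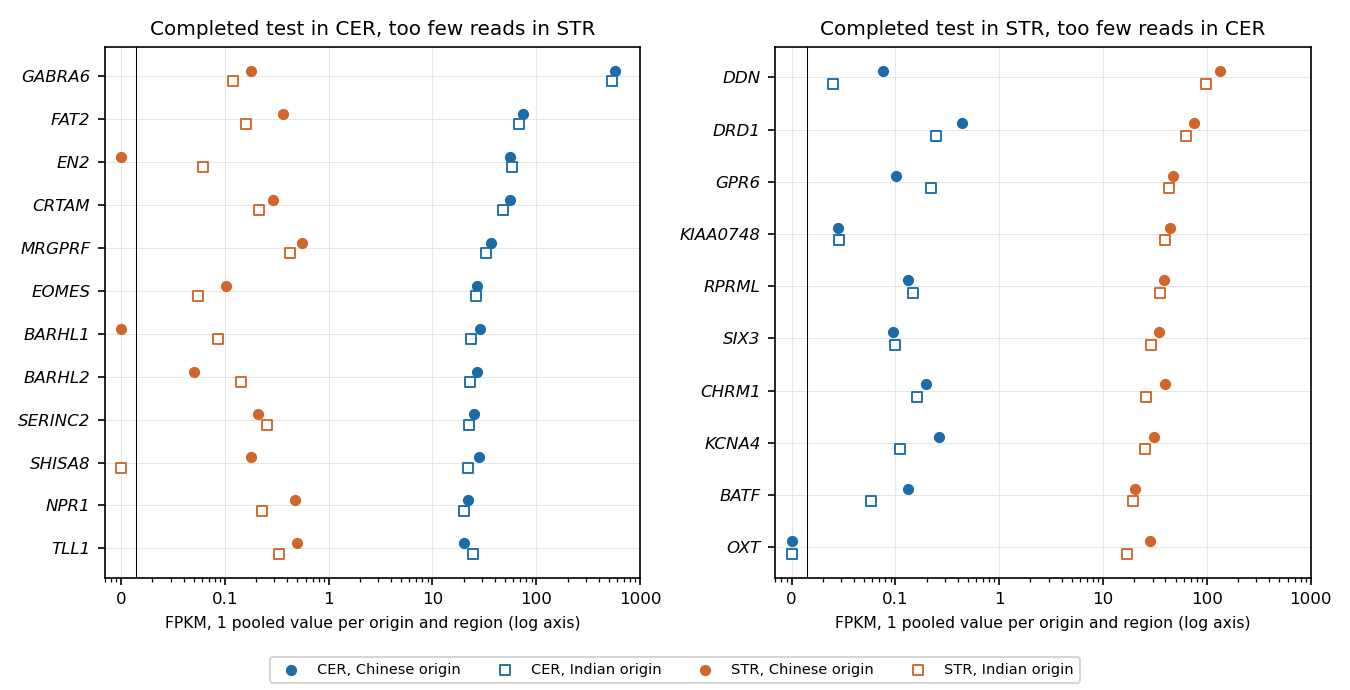
FPKM (log axis, values of 0 drawn left of the vertical line) of genes other than small RNAs from the 12 with the highest FPKM in CER among those with too few reads in STR (left) and from the 12 such genes of STR, of which some are not drawn (right); blue is CER, orange STR, filled circles Chinese origin, open squares Indian origin. Every value in the region with too few reads is below 1 FPKM, while GABRA6 exceeds 500 FPKM in CER and DRD1 exceeds 60 FPKM in STR.

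Patterning factors, the transcription factors that divide the neural tube into regions, often had too few reads in 1 region. Of 18 hindbrain factors in the tables, 3 could be compared, ZIC1, ZIC2 and IRX3, all higher in CER, and 9 had too few reads in 1 region. Of 27 forebrain factors 3 could be compared and 17 had too few reads in 1 region. BCL11A and ZNF503 were higher in STR and EBF1 higher in CER. DLX6, a factor of forebrain GABAergic neurons, was listed at 0 in both CER values and had 17.9 and 14.5 FPKM in STR. BCL11B (CTIP2), a factor of projection neurons, had 0.0353 and 0.0198 FPKM in CER and 12.5 and 9.19 FPKM in STR. LHX8 and the choline transporter SLC5A7, which mark cholinergic interneurons, had at most 0.403 FPKM in CER, while SLC5A7 had 9.06 and 8.96 FPKM in STR.

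Genes whose Cuffdiff status was FAIL, meaning that the calculation ended with a numerical error, were also left out and their values are less certain. Among genes with at least 1 FPKM in both origins of CER or of STR, 1814 had this status in both regions. A further 264 with a completed test in CER had it in STR, and 534 with a completed test in STR had it in CER. PPP1R1B (DARPP-32), the phosphatase inhibitor downstream of dopamine, had 146 and 151 FPKM in CER and 1165 and 1022 FPKM in STR. DRD2, the D2 receptor, had 0.369 and 0.40 FPKM in CER and 89.8 and 83.7 FPKM in STR, and ADORA2A, the adenosine receptor found beside it, had 1.17 and 0.970 FPKM in CER and 175 and 168 FPKM in STR. Of Purkinje cell genes, ITPR1, the IP3 receptor, had 244 and 234 FPKM in CER and 61.3 and 42.9 FPKM in STR. MBP, myelin basic protein, had 2195 and 2479 FPKM in CER and 7625 and 7314 FPKM in STR.

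Among the most abundant genes that the status filter removed, SNAP25, a presynaptic SNARE protein, had 2913 and 2478 FPKM in CER and 1153 and 963 FPKM in STR. RTN4, Nogo, had 293 and 312 FPKM in CER and 739 and 654 FPKM in STR, and SPP1, osteopontin, had 225 and 235 FPKM in CER and 566 and 604 FPKM in STR. The amyloid precursor APP (622 and 612 FPKM in CER, 800 and 595 FPKM in STR), the ribosomal gene RPL10 (492 and 485 FPKM in CER, 490 and 487 FPKM in STR) and the sodium pump subunit ATP1B1 (759 and 738 FPKM in CER, 508 and 386 FPKM in STR) were closer between regions. The mitochondrial transcripts MT-CYB, ND1 and ND2 are listed at 0 in STR and PFC of Indian origin with the status HIDATA, where too many reads stop the estimate. MT-CYB had 5256 and 14845 FPKM in CER and 13033 FPKM in STR of Chinese origin. The small RNA genes 5S_rRNA (0 in both STR values) and U7 (0 in both CER values) completed the list of the highest values left out.

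Oligodendrocyte genes, which serve the myelin sheath, were higher in STR with few exceptions. Of 16 compared, 15 were higher in STR and none higher in CER (median log2 -1.82 and -1.85), and 12 remained so without centring. OPALIN had 41.1 and 24.1 FPKM in CER and 261 and 189 FPKM in STR, and MOG had 125 and 123 FPKM in CER and 564 and 489 FPKM in STR (log2 -2.30 and -2.31). The lineage factors SOX10 (12.7 and 13.1 FPKM in CER, 53.7 and 44.0 FPKM in STR) and OLIG2 (14 and 13.7 FPKM in CER, 46.8 and 40.0 FPKM in STR) had ratios like those of the myelin genes. CSPG4, a marker of the precursors, was not called (log2 -1.06 and -0.69). The PFC values of OPALIN, MOG, SOX10 and OLIG2 lay between those of CER and STR in both origins.

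Of 11 microglia genes compared, 9 were higher in STR and none higher in CER (median log2 -1.51 and -1.35), and 6 without centring (median log2 -1.39 and -1.04). AIF1 (IBA1) had 10.4 and 10.3 FPKM in CER and 33.8 and 26.9 FPKM in STR, and P2RY12, the purinergic receptor of resting microglia, had 14.5 and 13.4 FPKM in CER and 42.4 and 32.0 FPKM in STR. Endothelial and mural genes were called higher in STR in 4 of 10 (40%), or 2 of 10 without centring. CLDN5, the tight junction protein of brain endothelium, had 18.4 and 13.6 FPKM in CER and 42.7 and 31.0 FPKM in STR. Of 9 astrocyte genes compared, 3 (33.3%) were higher in STR, and 1 of these without centring, SLC1A2. SLC1A2, the glutamate transporter GLT-1, had 37.7 and 34.0 FPKM in CER and 164 and 117 FPKM in STR, while SLC1A3, the transporter GLAST, which is abundant in Bergmann glia, was not called, with 605 and 600 FPKM in CER and 404 and 334 FPKM in STR.

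Bergmann glia, the radial astrocytes of the cerebellar cortex, were represented by 4 compared genes. FABP7, a fatty acid carrier that binds docosahexaenoic acid, had 308 and 278 FPKM in CER and 62.8 and 54.7 FPKM in STR, and GDF10 had 4.06 and 3.69 FPKM in CER and 0.619 and 0.552 FPKM in STR. HOPX went the other way, with 37.7 and 51.0 FPKM in CER and 234 and 198 FPKM in STR. TNC, tenascin C, listed among the other cerebellar neurons and Bergmann glia, had too few reads in CER (0.219 and 0.220 FPKM) and 8.86 and 5.94 FPKM in STR.

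Markers of 2 tissues that border the sampled regions differed between origins. Of the cortical excitatory list, the summed level over its 14 genes was 445 and 376 FPKM in CER and 1952 and 1688 FPKM in STR, where most of it was NRGN. Without NRGN the sums were 444 and 375 FPKM in CER and 176 and 66.2 FPKM in STR. FEZF2 in Indian origin and THEMIS in Chinese origin were listed at 0 in CER, and no member was at 0 in STR. The cortical factor TBR1 had 0.0648 and 0.0643 FPKM in CER and 4.82 and 0.933 FPKM in STR, with 28.0 and 25.8 FPKM in PFC. TBR1, SLC17A7, NEUROD6, EMX1 and CCK were higher in STR of Chinese origin than of Indian origin. Of the 8 compared members, 2 (25%) were higher in CER, SLC17A7 and NPTX1. NRGN alone (12.5%) was higher in STR, near the 12.9% of all genes. The part of cortical tissue in the STR values was not tested.

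Several choroid plexus genes were higher in CER, with higher CER values in Indian origin for TTR, FOLR1, PRLR, KCNJ13 and CLIC6. The summed level over the 12 choroid plexus and ependyma genes was 739 and 2224 FPKM in CER and 228 and 224 FPKM in STR with no member at 0, and 4 of 6 compared members were higher in CER. TTR made up most of the CER sums, and the other 11 genes summed to 99.0 and 164 FPKM in CER and 202 and 183 FPKM in STR, in which ENPP2 is the largest. TTR, transthyretin, the main secreted protein of choroid plexus, had 640 and 2060 FPKM in CER and 25.8 and 40.1 FPKM in STR (log2 4.51 and 5.37). FOLR1, the folate receptor, had 2.31 and 8.06 FPKM in CER and 0.770 and 1.04 FPKM in STR. OTX2 had 12.7 and 19.5 FPKM in CER and 0.860 and 0.927 FPKM in STR, and this homeobox factor is also made by granule cell precursors. ENPP2, autotaxin, which oligodendrocytes share, was higher in STR, with 64.9 and 94.0 FPKM in CER and 194 and 176 FPKM in STR, a call that was lost without centring. The part of choroid plexus in the CER values was not tested.

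**Figure D5:**
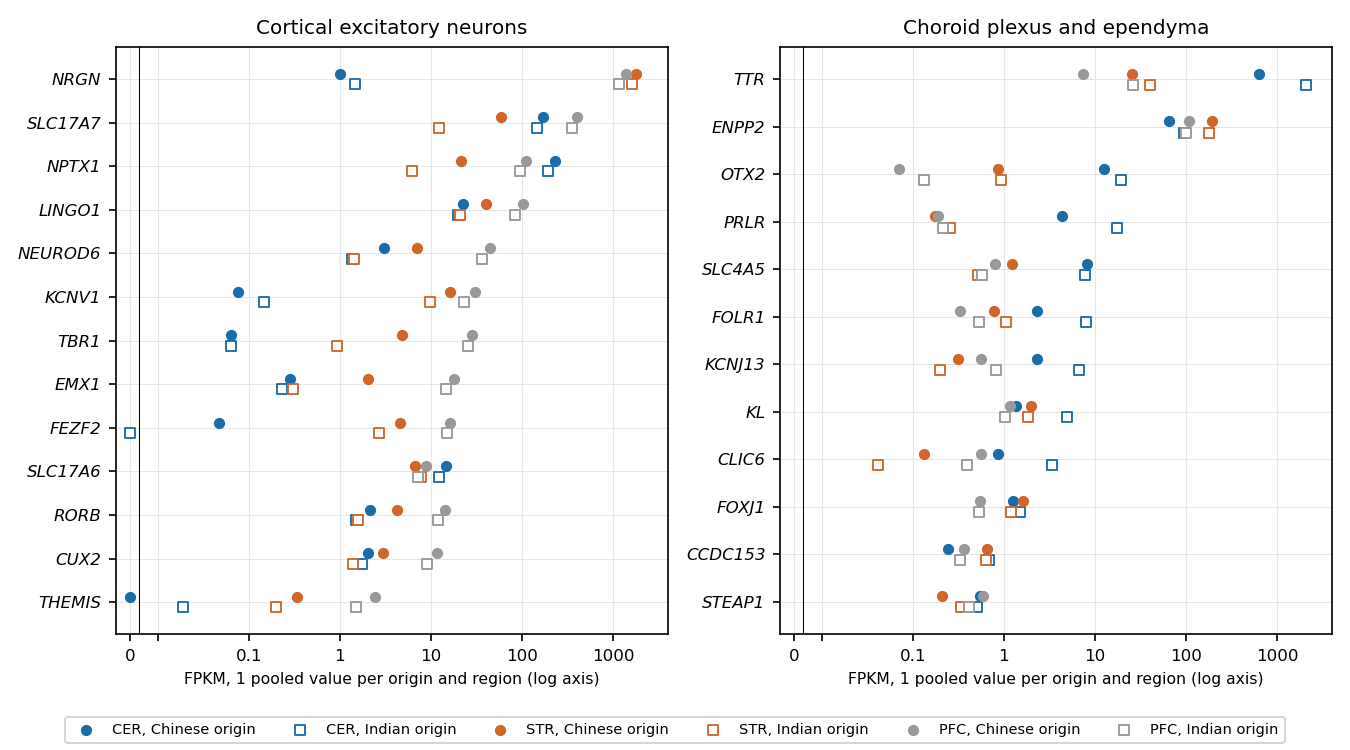
FPKM (log axis, values of 0 drawn left of the vertical line) of genes of the cortical excitatory neuron list, not all drawn (left), and the choroid plexus and ependyma list (right) in CER (blue), STR (orange) and PFC (grey); filled circles are Chinese origin and open squares Indian origin. In STR, TBR1 lies at 4.82 FPKM in Chinese origin and 0.933 FPKM in Indian origin, and in CER, TTR lies at 640 FPKM in Chinese origin and 2060 FPKM in Indian origin.

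The study chose genes of carotenoid uptake and metabolism and of long-chain fatty acid synthesis for its comparison of origins, and LPL, for which it lists primers, was added to them here. Of 17 in the tables, 12 were compared between regions (median log2 -0.67 and -0.67). Of these, 5 (41.7%) were higher in STR and none higher in CER. Without LPL, 4 of 11 were higher in STR (median log2 -0.32 and -0.44). SCARB1, the lipoprotein receptor that takes up carotenoids, had 21.8 and 19.7 FPKM in CER and 79.2 and 65.8 FPKM in STR (log2 -1.99 and -2.05). BCO2, the mitochondrial enzyme that cleaves xanthophylls, had 4.0 and 2.53 FPKM in CER and 14 and 8.28 FPKM in STR (log2 -1.93 and -2.03). RPE65, the retinoid isomerase of the visual cycle, was low, with 0.789 and 1.91 FPKM in CER and 5.38 and 7.37 FPKM in STR. For SCARB1 and BCO2 the 2 origins gave nearly the same ratio between regions. The pooled BCO2 values were higher in Chinese origin in both regions, a difference that was not tested here. In the study's RNA-seq the BCO2 difference between origins did not hold after adjustment for multiple comparisons.

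LPL, lipoprotein lipase, had 28.9 and 26.4 FPKM in CER and 82.7 and 57.9 FPKM in STR, and FADS2, the delta-6 desaturase, had 29.4 and 30.6 FPKM in CER and 81.6 and 61.7 FPKM in STR. The partner desaturase FADS1 was not called, with 54.6 and 45.5 FPKM in CER and 51.4 and 33.2 FPKM in STR. GSTP1, a zeaxanthin-binding protein in retina, was at the limit in Chinese origin and short of it in Indian origin (log2 -1.02 and -0.91), with 143 and 155 FPKM in CER and 268 and 234 FPKM in STR. The elongases ELOVL2, ELOVL4 and ELOVL5, the cholesterol exporter ABCA1 and ALDH3A2 had log2 ratios between -0.44 and 0.19. STARD3, a lutein-binding protein in retina, had a FAIL status and 28.5 and 26.6 FPKM in CER and 27.7 and 21.1 FPKM in STR. NPC1L1, ABCG5, LIPC and the provitamin A cleaving enzyme listed as BCMO1 had at most 1.17 FPKM in either region and were not compared.

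Retinoic acid signalling, which striatal neurons retain in adulthood, also divided the regions. Of 13 genes compared, 5 (38.5%) were higher in STR and 1 (7.69%) higher in CER, the last near the 9.11% of all genes. RXRG, a nuclear receptor of projection neurons, had 1.58 and 1.78 FPKM in CER and 66.4 and 71.2 FPKM in STR (log2 -5.51 and -5.64), with 4.69 and 4.09 FPKM in PFC. RARB had 2.61 and 2.51 FPKM in CER and 27.3 and 22.8 FPKM in STR, and RARG, the receptor that went the other way, had 7.55 and 7.23 FPKM in CER and 3.07 and 2.35 FPKM in STR. CRABP1, a retinoic acid carrier, had 6.44 and 10.5 FPKM in CER and 55.5 and 58.2 FPKM in STR, and ALDH1A1, a retinal dehydrogenase, had 32.4 and 38.3 FPKM in CER and 125 and 123 FPKM in STR.

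Proteasome, respiratory chain and ribosomal protein genes, used by all cells, had medians somewhat toward STR, with the proteasome closest to all genes. Of 39 proteasome genes none was called, and of 82 respiratory chain genes 1 was higher in STR (COX4I1). Of 85 ribosomal protein genes 7 (8.24%) were higher in STR and none higher in CER, below the 12.9% and 9.11% of all genes. Their median log2 ratios were -0.07 and -0.15 for the proteasome, -0.24 and -0.40 for the respiratory chain and -0.31 and -0.47 for ribosomal proteins. Without centring the proteasome medians turned to 0.05 and 0.17, and 4 ribosomal genes were higher in STR and 1 higher in CER. Of 13 reference genes 1 (7.69%) was called, toward STR. It was ACTB, beta-actin, with 512 and 494 FPKM in CER and 1115 and 841 FPKM in STR (log2 -1.25 and -1.08). The calls of COX4I1 and ACTB were lost without centring.

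The largest distances between the 2 origins, among genes with at least 5 FPKM in CER or STR in each origin, belonged to small RNA genes: SNORD115, Y_RNA, mml-mir-25, SNORD116 and U7. One SNORD115 locus had 242 and 114 FPKM in CER and 5.76 and 255 FPKM in STR (log2 5.27 and -1.48). Of the other genes, chosen after these values were seen, WIF1, an inhibitor of Wnt ligands, had 8.43 and 0.879 FPKM in CER and 60.4 and 48.7 FPKM in STR (log2 -2.96 and -6.11). BHLHE22, a neuronal transcription factor, had 38.3 and 43.4 FPKM in CER and 1.88 and 0.244 FPKM in STR (log2 4.22 and 7.16). Both kept their direction in the 2 origins, and each had 1 value below 1 FPKM. For WIF1 the origins were further apart in CER than in STR, and for BHLHE22 further apart in STR than in CER.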

How the data were processed

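RNA of PFC, CER and STR from 6 rhesus monkeys was sequenced by the authors in single-end reads of 50 bases (TruSeq libraries, 1 lane per region), checked with FastQC, aligned to mmul1 with TopHat and summarised with Cuffdiff, listed as version 0.0.5. In the tables deposited by the authors, 1 per region, a gene has a single FPKM for each origin, pooled from 3 monkeys. It also holds the authors' fold change, test statistic, p-value and q-value between origins, which were not used, and a status, which was used as a filter. No counts or depths were analysed here, so no interval or test was computed.

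The CER and STR tables (30246 lines each, 1 repeated line left out of STR) were joined on the gene identifier. Of 14435 genes with completed status in both, 13545 had at least 1 FPKM in CER or STR in each origin, and 402 of these had a value of 0 and no ratio. The log2 of CER over STR was centred on the median of each origin. Symbols are the authors' (22264 genes), with 749 from the reference annotation, and 27 that had become dates were not used. Coordinates are those listed for mmul1. Named genes were the 15 with the largest ratio per direction (by the smaller of the 2 origins), up to 6 per gene list with any called member against its list, the 5 largest distances between origins, the 6 most abundant genes per region left out by status, and the study's list with LPL added. Other genes were added for their known role, with values seen. The members, the 31 gene lists and the rules were chosen with earlier results of these data known. The code for the ratio and its calls was checked on simulated data with equal noise in all genes, which does not test the calls made here. Python 3.11.15, numpy 2.4.6, pandas 2.3.3 and matplotlib 3.10.9 were used. Some genes that enter the counts are not reported here by name.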

Additional observations from a re-analysis of the deposited data

Results flagged for a closer look

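In 18 genes log2(CER/STR) was at least 1 in one origin and at most -1 in the other. The difference was not tested, since each origin has 1 pooled value per region, and 12 of the 18 are small RNA genes. Some of the 18 are listed with long spans, among them TMEM196 (1389178 bases), snoU13 (227033 bases) and a Y_RNA gene on chromosome 19 (169330 bases). How reads were shared with other genes in such spans is uncertain. Values below are the centred log2 ratio of Chinese origin minus that of Indian origin.

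A negative difference means a lower CER/STR ratio in Chinese origin. TMEM196, a membrane protein, differed by -2.85, with 2.88 and 13.2 FPKM in CER and 7.55 and 4.21 FPKM in STR. NOV (CCN3), a secreted matrix protein, differed by -2.34, with 2.51 and 7.07 FPKM in CER and 4.78 and 2.32 FPKM in STR. Of the small RNA genes, SNORA16 differed by -3.10, a Y_RNA gene on chromosome 10 by -2.95, U6 by -2.84, SNORD34 by -2.65, U1 by -2.63 and snoU13 by -2.25. Genes without a symbol differed by -3.45 (ENSMMUG00000035171), -2.94 (ENSMMUG00000030407) and -2.56 (ENSMMUG00000016528).

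A positive difference was found for SNORD115 (6.75), a Y_RNA gene on chromosome 19 (4.55), mml-mir-25 (3.70), SNORD116 (3.38), snoU109 (3.16), a Y_RNA gene on chromosome 14 (3.01) and ENSMMUG00000034557 without a symbol (2.40).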

How the results depend on the processing

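No paired analysis was possible because each table holds 1 pooled value per origin, with no column per monkey, and for the same reason no replicate could be left out. The 2-fold counts stayed within 1.5 times of 1197 and 1698 under both other centrings, both pseudocounts, both other FPKM minimums and with genes of too few reads kept. The same held with either origin alone and, as added after the data were seen, with FAIL genes kept or small RNA genes left out. A fold of 1.5 gave 2430 genes higher in CER and 2801 higher in STR, and a fold of 4 gave 307 and 477. Without centring, 1245 of the 1698 genes higher in STR were kept. All 1197 genes higher in CER were kept, as they had to be, since both medians subtracted were positive. The count of 18 opposite genes became 138 with a pseudocount of 0.1 FPKM, 130 with one of 1 FPKM and 139 with genes of too few reads kept, all 3 of which bring in the 402 genes with a 0. It became 7 without small RNA genes, 72 at 1.5-fold and 0 at 4-fold. The median distance between origins (0.16) stayed within 1.5 times. The lists and the largest ratios held 182 called genes. Of these, 161 stayed called without centring and 176 with centring on genes of at least 10 FPKM. With a pseudocount of 0.1 it was 180, and with one of 1 it was 168. That none reversed was fixed in advance, since the medians subtracted are below 2-fold and a pseudocount keeps the direction of a raw ratio. Of 311 list medians under alternatives, given as the mean of both origins, 216 moved by less than the distance between origins and 8 changed sign, in 7 lists. The indirect pathway median became 0.36 (from -1.67) without PENK, which left GRIK3 alone. At a minimum of 5 FPKM the median of metabotropic receptors became 1.66 (from -0.35) and that of cortical excitatory genes 0.64 (from -0.51). The cerebellin median (0.50) became -0.05 with genes of too few reads kept and -0.04 without its most abundant member, and the potassium channel median (0.65) became -0.12 with genes of too few reads kept. Without centring the reference genes and the proteasome came to 0.12 and 0.11 (from -0.10 and -0.11). The ratios of genes near or below 1 FPKM in 1 region are the least certain.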
